A study of Homo sapiens with 4 samples.

Results

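Ephrins and their Eph receptors were examined in Ca9-22 cells with and without silencing of KPNA4, which encodes a karyopherin-α subtype that carries cargo proteins into the nucleus. The 10 genes were given by name: the receptors EPHA1, EPHA2, EPHA4, EPHB2, EPHB3, EPHB4 and EPHB6 and the ligands EFNA1, EFNB1 and EFNB2. They were found on the array through the transcript accession of each probe, which gave 13 probes for the 10 genes, and 9 of the 10 were among the 19550 genes that could be tested. Ca9-22 is an established line from a human gingival squamous cell carcinoma. Total RNA of 2 negative control cultures and 2 KPNA4 knockdown cultures was labeled with Cy3 and hybridized to Agilent 1-color arrays, 1 array per culture, and all 4 arrays lay on 1 slide. Both groups were transfected with siRNA and collected 3 days later according to the sample labels, whereas the text of the study describes silencing with short hairpin RNA, so the reagent used for the arrays was not settled. Cells were grown in DMEM with serum and antibiotics. The design gives the 2 cultures of a group as biological replicates, and the comparison rests on a single cell line.

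Eph receptors are the largest family of receptor tyrosine kinases, and their ligands stay attached to the surface of the neighboring cell. A-type ephrins are held by a glycolipid anchor and mainly bind EphA receptors, whereas B-type ephrins cross the membrane and mainly bind EphB receptors, with EPHA4 able to bind both types. Contact sends a forward signal through the receptor and a reverse signal through the ligand, which adjusts cell adhesion, repulsion and the borders between groups of cells. In stratified epithelium, EPHA2 and EFNA1 are the best-known pair and are linked to keratinocyte differentiation.

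To show where transcription of the genes with the largest differences starts, among members well above background on all 4 arrays, the 250 bases before the start site are given for EFNB2, EFNB1 and EPHB3, beside those of EFNA1 and EPHA2, whose levels did not pass the test. Sequences are from RefSeq on GRCh38.p14, written 5′ to 3′ on the strand of the gene, and capitals mark matches on either strand to the letters of a GC box (GGGCGG), of a CCAAT box or of a TATA box (spelled TATAAA). The windows are chr13:106535663-106535912 (minus strand) for EFNB2, chrX:68828771-68829020 (plus strand) for EFNB1, chr3:184561535-184561784 (plus strand) for EPHB3, chr1:155127626-155127875 (plus strand) for EFNA1 and chr1:16156070-16156319 (minus strand) for EPHA2.
EFNB2: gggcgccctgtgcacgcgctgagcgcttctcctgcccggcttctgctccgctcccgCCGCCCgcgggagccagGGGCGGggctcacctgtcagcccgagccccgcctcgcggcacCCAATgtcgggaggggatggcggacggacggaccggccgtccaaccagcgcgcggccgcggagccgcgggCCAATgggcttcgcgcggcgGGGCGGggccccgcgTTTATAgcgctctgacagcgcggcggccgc
EFNB1: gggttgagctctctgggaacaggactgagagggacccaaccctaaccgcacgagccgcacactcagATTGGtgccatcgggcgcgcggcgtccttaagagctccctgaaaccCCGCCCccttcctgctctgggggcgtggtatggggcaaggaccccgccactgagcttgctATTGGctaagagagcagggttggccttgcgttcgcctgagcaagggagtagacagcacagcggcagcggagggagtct
EPHB3: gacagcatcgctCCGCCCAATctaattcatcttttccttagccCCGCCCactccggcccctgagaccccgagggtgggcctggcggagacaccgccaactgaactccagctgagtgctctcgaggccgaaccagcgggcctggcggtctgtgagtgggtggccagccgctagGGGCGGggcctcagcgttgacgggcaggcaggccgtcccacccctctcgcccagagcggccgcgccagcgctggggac
EFNA1: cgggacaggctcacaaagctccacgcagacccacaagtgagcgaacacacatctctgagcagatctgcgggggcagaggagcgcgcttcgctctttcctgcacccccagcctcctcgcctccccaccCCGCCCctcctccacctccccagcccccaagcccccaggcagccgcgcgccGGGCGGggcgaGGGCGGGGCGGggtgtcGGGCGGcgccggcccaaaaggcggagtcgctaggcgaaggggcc
EPHA2: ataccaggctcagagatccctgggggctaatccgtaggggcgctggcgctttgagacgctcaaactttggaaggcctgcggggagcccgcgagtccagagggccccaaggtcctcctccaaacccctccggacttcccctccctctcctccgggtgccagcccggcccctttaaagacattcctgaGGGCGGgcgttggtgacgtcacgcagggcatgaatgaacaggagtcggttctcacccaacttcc

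The EFNB2 window was the only member window with a TATA match, and it also held 3 GC boxes and 2 CCAAT matches. EFNB1 had 1 GC box and 2 CCAAT matches, and EPHB3 had 3 GC boxes and 1 CCAAT match, the latter sharing letters with a GC box. EFNA1 had 5 GC boxes and EPHA2 had 1, and neither held CCAAT. Over the 12 start-site windows of the 10 genes, a GC box was present in 12, CCAAT in 7 and TATA in 1, whereas 42.6%, 32.0% and 10.7% of all 35116 RefSeq windows held these motifs. The 2 windows of EPHB2 lie 1 base apart and repeat nearly the same sequence. By gene, a GC box was present in 10 of 10, CCAAT in 7 and TATA in 1. The AP-1 letters TGANTCA (6.57% of all windows), the NF-κB motif, GGG and TTCC with any 3 bases between them (5.67%), the E-box CACGTG (6.34%) and the RBPJ letters GTGGGAA (5.43%) were in 0 of the 12 windows. The G and C content was 78.4% for EFNB2, 63.6% for EFNB1, 70.0% for EPHB3, 73.2% for EFNA1 and 63.2% for EPHA2, against a median of 58.0% over all windows, and 10 of the 12 member windows lay above that median. By gene, 9 of 10 had a window above it. The GC box is itself made of G and C, so both descriptions overlap. These are matches of letters only, and no binding was measured.

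Levels below are log2 of the processed signal relative to the 75th percentile of the same array, so that a level of 0 equals that percentile, and differences are knockdown minus control on the log2 scale. Tests are from limma, fitted across all genes, and a gene was called where its Benjamini-Hochberg adjusted p was under 0.05. The targeted gene KPNA4 stood at 4.02 and 4.03 in controls and at 2.36 and 2.05 in knockdown cells, a difference of -1.82 (SE 0.12, limma adjusted p = 0.00183). Of all genes tested, 49.8% passed the threshold, 20.3% higher and 29.5% lower in knockdown cells, with a median difference of -0.10, and in 79.8% the arrays of both groups did not overlap. Array pairs within a group correlated at 0.998 over genes, and pairs across groups at 0.979. Probes well above background made up 70.2% to 71.0% per array, and the 75th percentile of the processed signal lay between 1381 and 1466 for controls and between 1938 and 2096 for knockdown cells. Without scaling between arrays the median difference of all genes was 0.40 in place of -0.10, and 11257 genes were called higher and 1048 lower in place of 3973 and 5766. Without knockdown replicate 1 the calls were 2204 and 3134, and without knockdown replicate 2 they were 2150 and 2522.

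All 10 keratinocyte markers were well above background on all 4 arrays, and their summed linear level was 37.8 to 37.9 times the 75th percentile in controls and 54.1 to 55.3 times in knockdown cells, with 7 of them called higher and 1 lower. Of 18 markers of 4 other cell types, 10 were well above background on all arrays and 5 on none, COL3A1, PECAM1, TEK and TYR among them. Their summed levels were 0.143 to 0.147 in controls against 0.330 to 0.345 in knockdown cells for 6 fibroblast markers, 0.0884 to 0.0947 against 0.0632 to 0.0667 for 4 endothelial, 0.488 to 0.581 against 0.205 to 0.228 for 4 leukocyte and 0.156 to 0.171 against 0.170 to 0.176 for 4 melanocyte markers. The largest called rises among all markers were KRT6A, KRT16 and DSG3 (differences of 6.94, 2.04 and 1.73), and CD3E and CD68 fell (-1.48 and -1.37). LUM was not well above background in knockdown cells and is given only as at least 1.49-fold lower. The Y-linked ribosomal gene RPS4Y1 could not be told from background in controls and rose at least 43.4-fold in knockdown cells (limma adjusted p = 0.000719). The part of the keratinocyte shift and of the RPS4Y1 difference in the values below was not tested. Whether control and knockdown cultures came from the same stock of Ca9-22 was not tested either, and for every difference given here a difference between stocks and the knockdown cannot be told apart in these arrays. In a bulk sample, more cells of a kind and more RNA per cell cannot be told apart.

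The transmembrane ligands EFNB2 and EFNB1 rose in knockdown cells. EFNB2, a preferred ligand of EPHB4 best known from the border between arteries and veins, stood at -1.37 and -1.40 in controls and at 1.90 and 1.93 in knockdown cells. The arrays of a group nearly coincided, and the groups did not overlap. The difference was 3.30 (SE 0.057, 95% interval 3.14 to 3.46, limma adjusted p = 0.000298), 9.84-fold, and ranked 92 from the top among the 19550 genes. EFNB1, the X-linked B-type ligand whose loss causes craniofrontonasal syndrome, stood at -0.28 and -0.27 in controls and at 0.70 and 0.71 in knockdown cells. Its difference of 0.98 (SE 0.055, 95% interval 0.82 to 1.13, limma adjusted p = 0.00141) was 1.97-fold, and 94.4% of genes tested had a lower one.

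EFNA1, the glycolipid-anchored ligand of EPHA2, did not pass the test. Its level was 0.63 and 0.57 in controls and 0.48 and 0.63 in knockdown cells, and the groups overlapped. The difference was -0.047 (SE 0.078, 95% interval -0.26 to 0.17, limma adjusted p = 0.638). The EFNA1 probe was printed 10 times on each array, all of them well above background. The SD among these spots was 0.040 and 0.045 for control replicates 1 and 2 and 0.110 and 0.053 for knockdown replicates 1 and 2. Knockdown replicate 1 thus had the widest spread, with single spots from 0.18 to 0.54. Its lowest spot stood apart from the rest, the next lowest being at 0.45.

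**Figure D1:**
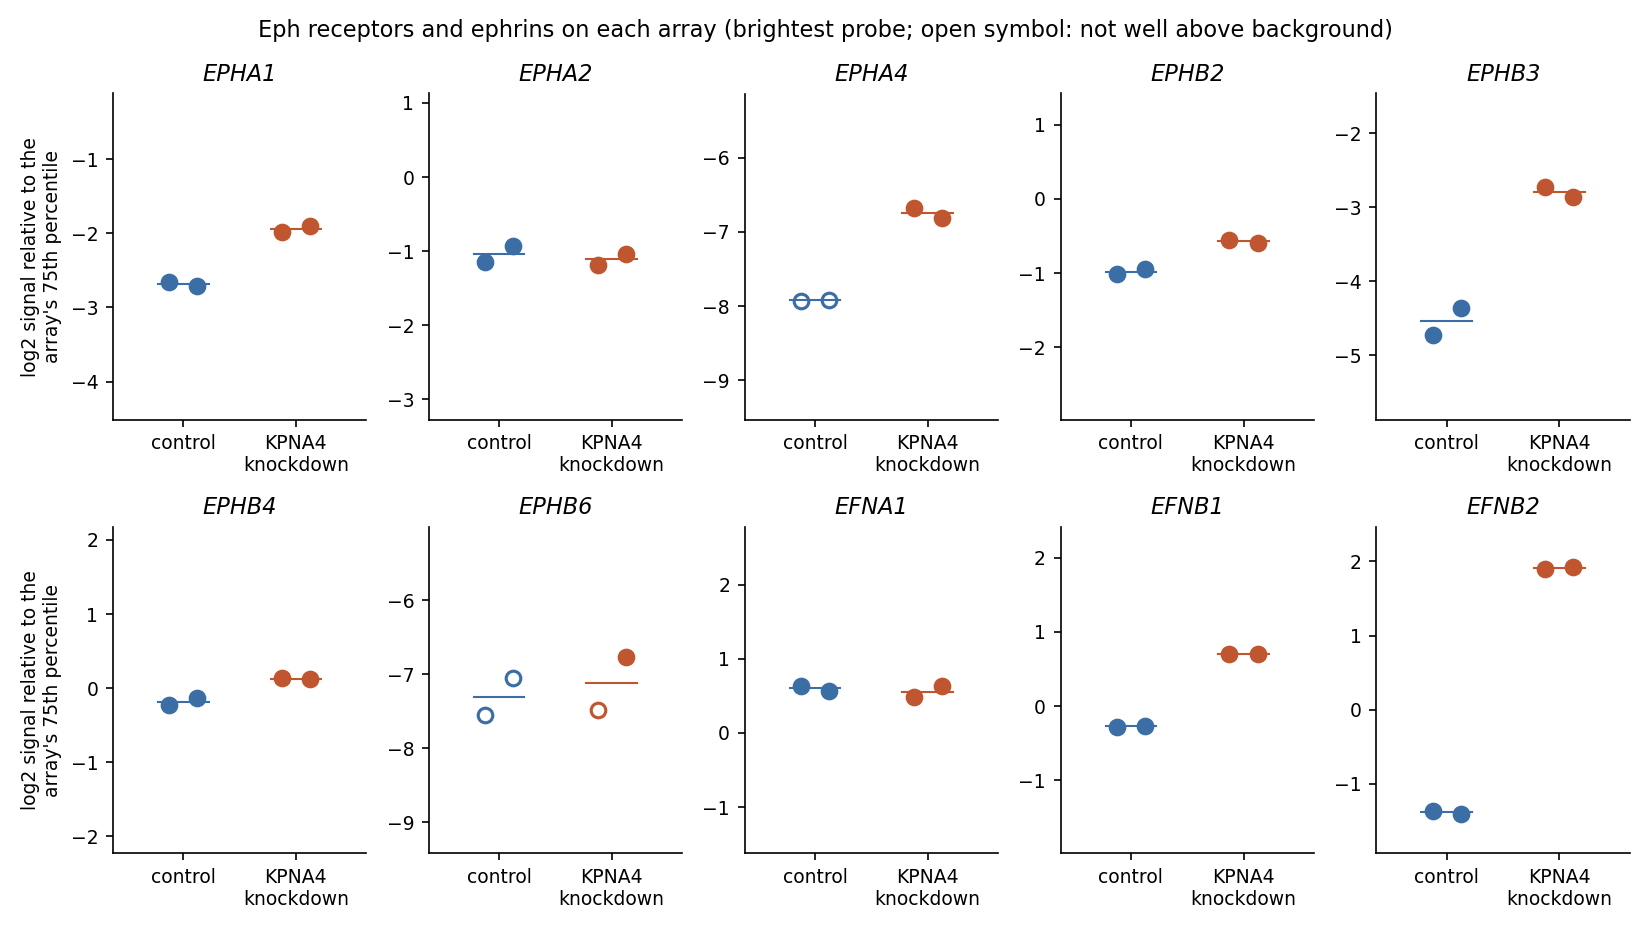
Level of each of the 10 Eph and ephrin genes on every array, as log2 processed signal relative to the 75th percentile of that array, with control and KPNA4 knockdown cultures as separate points. EFNB2 moved from about -1.4 to 1.9 and EPHB3 from below -4.3 to above -2.9, whereas the points of EPHA2, EFNA1 and EPHB6 overlapped.

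Of the EphB receptors, EPHB3, EPHB2 and EPHB4 were higher in knockdown cells, and EPHB6 could not be tested. EPHB3, which with EPHB2 keeps cells at their position in the intestinal crypt, had levels of -4.72 and -4.35 in controls and -2.73 and -2.86 in knockdown cells. Both knockdown values lay above both control values, and the control arrays differed from each other more than the knockdown arrays did. The difference was 1.74 (SE 0.15, 95% interval 1.34 to 2.14, limma adjusted p = 0.00296), 3.34-fold, and ranked 471 from the top.

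EPHB2 had 3 probes, and the brightest stood at -1.01 and -0.95 in controls and at -0.55 and -0.60 in knockdown cells. The difference of 0.41 (SE 0.062, 95% interval 0.24 to 0.58, limma adjusted p = 0.0104) was 1.33-fold. A dimmer probe at -3.41 and -3.21 in controls and -2.64 and -2.73 in knockdown cells gave 0.63 (limma adjusted p = 0.0104 over all probes). The remaining probe stood at -1.08 and -0.88 in controls and -0.58 and -0.77 in knockdown cells, and its 0.31 did not pass (limma adjusted p = 0.0817). All EPHB2 probes thus had their knockdown arrays above their control arrays, and 1 of the 3 was not called.

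EPHB4, the receptor that pairs with EFNB2 in vessels, stood at -0.22 and -0.14 in controls and at 0.13 and 0.13 in knockdown cells on its brighter probe. The difference was 0.31 (SE 0.063, 95% interval 0.14 to 0.48, limma adjusted p = 0.0204), 1.24-fold. Its other probe stood at -2.80 and -2.81 in controls and -2.58 and -2.59 in knockdown cells, a difference of 0.22 (limma adjusted p = 0.0389 over all probes). The calls of EPHB2 and EPHB4 rested on both knockdown arrays: without knockdown replicate 1 the limma adjusted p was 0.0697 and 0.110, and without knockdown replicate 2 it was 0.0606 and 0.114. EPHB6, a family member without an active kinase, stood at -7.55 and -7.06 in controls and at -7.48 and -6.77 in knockdown cells. Its probe was well above background on knockdown replicate 2 alone, so no fold is given.

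Of the EphA receptors, EPHA1 rose, EPHA4 was well above background in knockdown cells only, and EPHA2 did not pass the test. EPHA1, the founding member of the receptor family, stood at -2.66 and -2.71 in controls and at -1.98 and -1.90 in knockdown cells. The groups were apart by far more than their arrays, with a difference of 0.74 (SE 0.064, 95% interval 0.57 to 0.92, limma adjusted p = 0.00309), 1.67-fold. EPHA2 stood at -1.14 and -0.93 in controls and at -1.18 and -1.03 in knockdown cells, and its groups overlapped. The difference of -0.069 (SE 0.11, limma adjusted p = 0.610) had a 95% interval from -0.36 to 0.22.

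EPHA4, the receptor that binds ephrins of both types, was close to the background. Its probe stood at -7.93 and -7.92 in controls and at -6.67 and -6.81 in knockdown cells, as means over repeated spots. Of 9 usable spots on each control array 0 were well above background, against 9 and 8 of 10 for knockdown replicates 1 and 2. Single spots ran from -8.46 to -7.37 and from -8.37 to -7.20 in controls and from -7.26 to -6.30 and from -7.34 to -6.24 in knockdown cells, so single spots of the groups overlapped whereas the array means did not. Set against the dimmest signals well above background on the control arrays, EPHA4 was at least 1.55-fold higher in knockdown cells. A spot not well above background on control replicate 2 reached -7.20, above the -7.34 used for that array, so the bound is approximate. The fitted difference of 1.18, which is not a bound, had a limma adjusted p of 0.00171. The probe passed the filter on dim signal only through its knockdown arrays, so this p gives no support of its own.

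**Figure D2:**
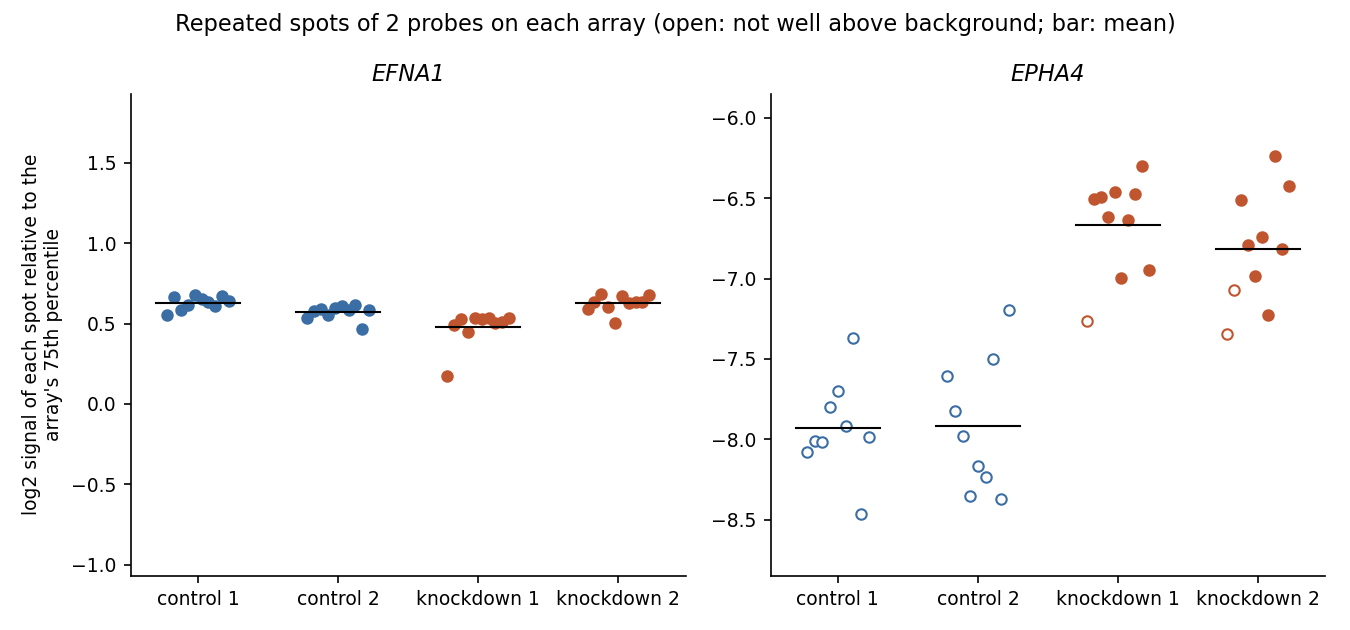
Every usable spot of the EFNA1 and EPHA4 probes on each array, as log2 processed signal relative to the 75th percentile of the array. The EFNA1 spots have means of 0.63 and 0.57 in controls and 0.48 and 0.63 in knockdown cells, those of knockdown replicate 1 being lowest, and the EPHA4 spots are centered at -6.67 and -6.81 in knockdown cells against -7.93 and -7.92 in controls, with single spots overlapping.

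The 8 members well above background on all 4 arrays were EFNB2, EFNB1, EFNA1, EPHB3, EPHB2, EPHB4, EPHA1 and EPHA2. Of these, 6 rose and 0 fell, where 20.5% of the 18509 genes with that detection rose, and 0 also fell at an unadjusted p under 0.05. The background depends on the scaling, since without it 11257 of all 19550 genes were called higher, and 9 of the 9 tested members with them. Their median difference was 0.58, against -0.10 for all genes tested. The same 6 had knockdown arrays above both control arrays, and 2 had overlapping groups. Of all 19550 genes, 6195 had knockdown arrays above both control arrays and 9409 below, and 79.8% did not overlap in either direction. Both EFNB ligands and all measurable EphB receptors were among the rises, whereas the EFNA1 and EPHA2 pair was not. The counts describe these members, which were picked with earlier results known, and no test of the group was made.

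**Figure D3:**
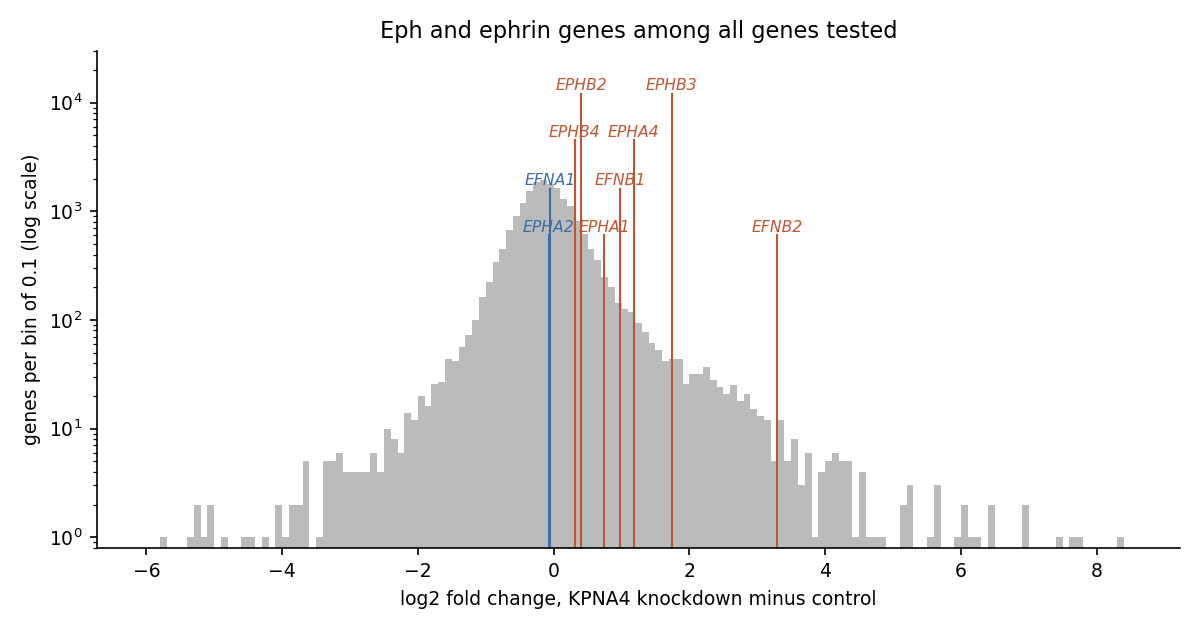
Distribution of the difference between knockdown and control, in log2 units, over the 19550 genes tested, with the tested Eph and ephrin genes marked. EFNB2 at 3.30 and EPHB3 at 1.74 lie in the upper tail, and EPHA2 and EFNA1 lie near the median of -0.10.

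The other genes of the family were measured for comparison, 12 in all. EFNB3, the B-type ligand best known from the nervous system, stood at -5.68 and -5.37 in controls and at -2.84 and -2.74 in knockdown cells. It rose by 2.74 (SE 0.13, limma adjusted p = 0.001), 6.66-fold, so that the 3 B-type ligands were all higher in knockdown cells. EFNA3 rose by 0.48 (limma adjusted p = 0.00609), from -5.39 and -5.41 to -4.91 and -4.94. In the order of RefSeq protein-coding entries on chromosome 1 by start position, EFNA3 comes next to EFNA1, with 0 entries between. Between EFNA3 and EFNA4 that order holds 1 entry, and whether it overlaps them was not examined. EFNA4 differed by -0.010 (limma adjusted p = 0.891), EFNA5 by 0.069 (0.561) and EFNA2 by 0.21 (0.699), and none of these passed.

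EPHA10, a receptor with an inactive kinase domain, gave opposite results on 2 probes. The brighter rose by 0.30 (limma adjusted p = 0.0294), from -4.90 and -4.78 to -4.55 and -4.52. The dimmer fell by 1.07 (limma adjusted p = 0.00323 over all probes), from -5.64 and -5.56 to -6.77 and -6.56, so no direction is given for the gene. EPHA6 was lower on its detected probe (difference -0.40, limma adjusted p = 0.0305), but its difference was 0.11 without scaling between arrays and 0.76 after normexp background correction. EPHA3, EPHA5, EPHA7, EPHA8 and EPHB1 could not be tested, since none of their probes passed the filter on dim signal. By the fit, 3 of the 7 tested genes of these 12 were higher and 1, EPHA6, was lower. EPHA10 is counted among the 3 by its brighter probe alone. The share called was 57.1%, against 49.8% of all genes, and the median difference was 0.21.

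**Figure D4:**
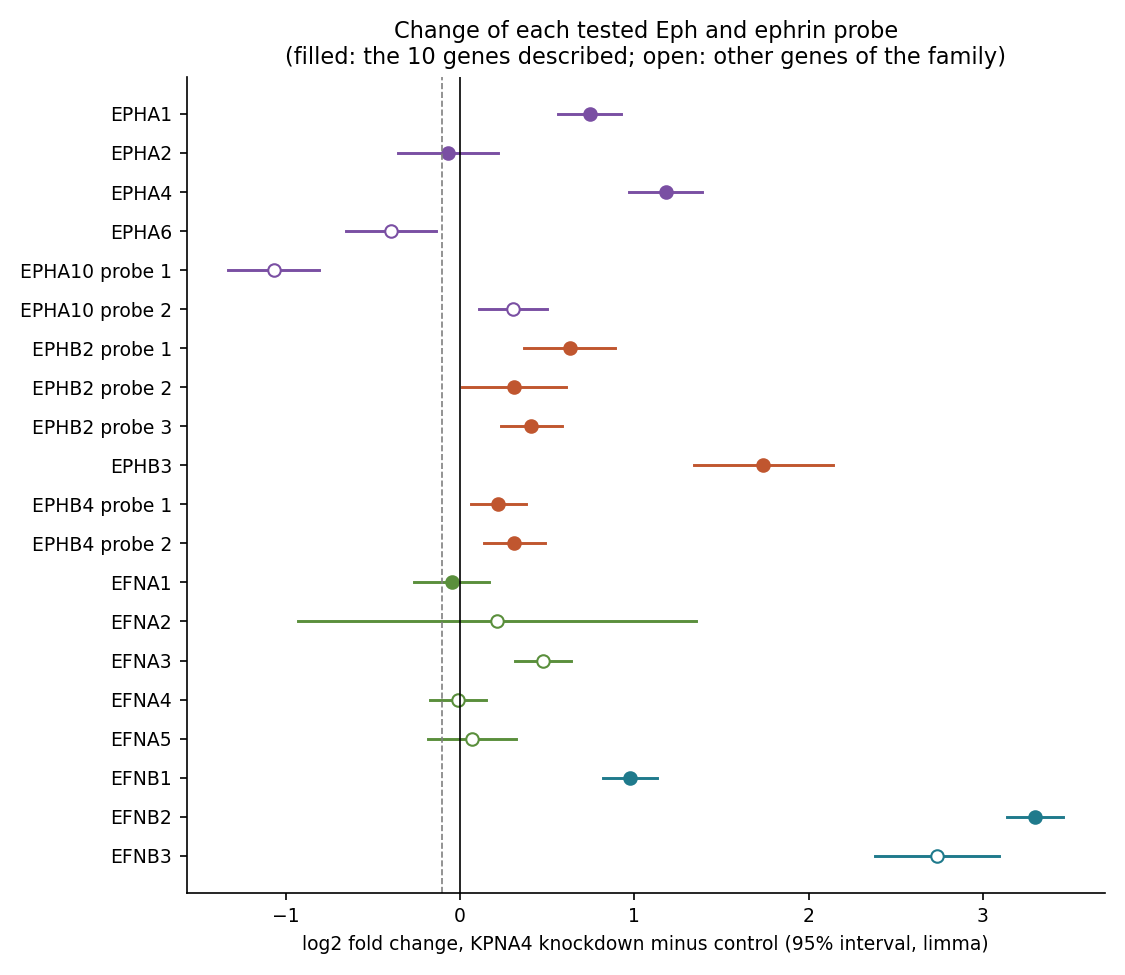
Difference between KPNA4 knockdown and control in log2 units for each tested Eph and ephrin gene, with its 95% interval from limma. The B-type ligands EFNB2 (3.30), EFNB3 (2.74) and EFNB1 (0.98) lie above 0, and the intervals of EPHA2 and EFNA1 cross 0. The EPHA4 point is the fitted value, and its bound is at least 1.55-fold.

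Of 60 listed partners of Eph signaling, 56 were tested, 14 rose and 15 fell, which is 51.8% against 49.8% of all genes, with a median difference of 0.024. This split depended on the scaling, with 39 higher and 1 lower without it. Leaving out either knockdown array lowered the number of calls, as it did for all genes, whereas the split stayed near even. VAV3, a guanine nucleotide exchange factor that acts in Eph-driven endocytosis, rose from -2.39 and -2.31 to 1.02 and 1.00, a difference of 3.36 (SE 0.062, limma adjusted p = 0.000298). NGEF, the exchange factor ephexin that binds EPHA4, rose from -1.45 and -1.45 to -0.23 and -0.23 (difference 1.22, limma adjusted p = 0.000915). CHN1, the Rac-inactivating α-chimaerin that acts below EPHA4, fell from -0.80 and -0.77 to -1.61 and -1.42 (difference -0.73, limma adjusted p = 0.00627).

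Of the 16 genes for cleavage and reverse signaling, 5 were higher and 6 lower (68.8% called). PTPN13, a PDZ-domain phosphatase of the type that binds the tails of B-type ephrins, rose from 0.89 and 0.94 to 2.47 and 2.47 (difference 1.55, limma adjusted p = 0.000691). SDCBP, which encodes syntenin, a PDZ protein that binds the same tails, fell from 2.66 and 2.47 to 0.99 and 1.03 (difference -1.55, limma adjusted p = 0.00142). ADAM10, the protease that cuts ephrins from the cell surface and named here after its values were seen, rose from 0.41 and 0.40 to 0.95 and 0.90 (difference 0.52, limma adjusted p = 0.00531). Among kinases, phosphatases and adaptors, 4 of 24 rose and 5 fell (37.5% called), and LYN, a Src-family kinase, fell as well (difference -0.72, limma adjusted p = 0.00956). The directions of these 7 named partners were the same under quantile, median and no scaling and under normexp correction. Most of the 7 were named for the size of their changes. Other called partners changed sign in these settings, some of the 6 lower for cleavage and reverse signaling among them.

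Other receptor tyrosine kinases and the semaphorin system, a further set of guidance cues, gave a frame for the members. Of 31 tested kinases outside the Eph family, 10 rose and 6 fell (51.6%, median difference 0.075). The largest rises among kinases well above background in both groups were FGFR3 (3.56, limma adjusted p = 0.000312) and ERBB3 (0.95, limma adjusted p = 0.00343). KIT had a large fitted rise, but it was not well above background in controls and is given only as at least 1.13-fold higher. The largest falls were ERBB4, not well above background in knockdown cells and at least 5.77-fold lower, LTK (-0.87) and ROR1 (-0.60). After normexp correction the differences of ERBB4 and ROR1 were 0.73 and 0.46. Of 25 tested semaphorin, plexin and neuropilin genes, 13 rose and 3 fell (64%, median difference 0.32). SEMA3A (2.16), SEMA3B (1.43) and SEMA3F (1.26), secreted semaphorins, rose most. SEMA6B (-2.04), SEMA3E (-0.56) and PLXNB3 (-0.37) fell, of which SEMA3E was at 1.09 and PLXNB3 at 0.26 after normexp correction, and PLXNB3 at 0.14 without scaling. Differences between these lists and the members were not tested.

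**Figure D5:**
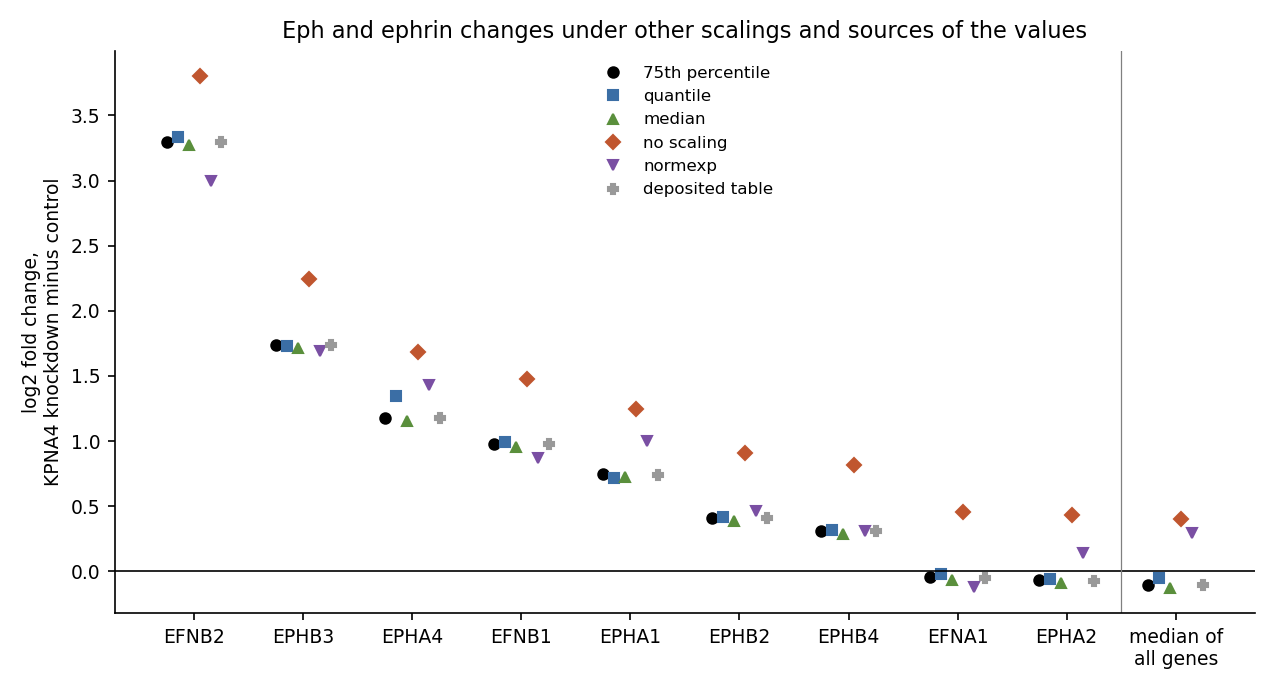
Difference between knockdown and control in log2 units for each tested Eph and ephrin member under each way of scaling the arrays and of correcting background. The 7 members called higher stay above 0 in every setting, but EPHA4 passed the filter on dim signal only through its knockdown arrays. EPHA2 and EFNA1 change sign, at 0.43 and 0.45 without scaling.

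The direction of the 6 called members well above background on all 4 arrays held under all scalings, whereas EPHA2 and EFNA1 changed sign. EPHA4 also stayed above 0, but it passed the filter on dim signal only through its knockdown arrays. Without scaling, EPHA2 was at 0.43 and EFNA1 at 0.45 (limma adjusted p = 0.0178 and 0.0147, both called higher), and both lay close to the shift of 0.40 of all genes in that setting. With normexp background correction on the local background, limma called 0 genes of 19550, with 641 higher and 524 lower at an unadjusted p under 0.05, and 3 members higher at that level.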

How the data were processed

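Agilent 1-color arrays of 2 control and 2 KPNA4 knockdown cultures were grouped by their labels. For each array the authors deposited a scanner table from Feature Extraction 11.0.1.1. Its processed signal is an intensity with background and spatial trend removed and no scaling between arrays. A table they also deposited covers 24209 of the 34127 probes and was found to hold a ratio, each processed signal over its array's 75th percentile, with at least 99.97% of probes within 1%. Its column medians were 0.327, 0.330, 0.334 and 0.331.

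Here log2 of the deposited processed intensity was used after control spots and outlier-flagged spots (333 to 355 of 43118 per array) were dropped. Repeated spots were averaged per probe, and the array's 75th percentile was subtracted. Saturated gene spots numbered 0. Probes had to be well above background on each array of 1 group or the other, and the brightest probe stood for its gene. Transcript accessions in a RefSeq table of GRCh38.p14 named 25771 of 34127 probes. The array grid refers to another assembly, so that table gave names and gene order only. limma 3.58.1 in R 4.3.3 compared the groups, with Benjamini-Hochberg adjustment over 19550 genes, and every probe was also fitted singly. For a gene below that detection in a whole group, a bound is given: the bright group's mean over the dim group's, where each dim array takes the higher of its lowest well-measured signal and the probe's own. Signals not well above background can exceed that lowest signal, so the bounds are approximate. The steps were tested on simulated data. Arrays have no read depth, and 2 per group limit the precision.

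The members and the gene lists, written from general knowledge, were chosen with earlier results of these data known. Named are all Eph and ephrin genes, KPNA4 and the 3 largest called changes each way in every other list. RPS4Y1, ADAM10 and markers at background were named after their values were seen. A marker gene and a sublist of partners are not reported here by name. Alternatives covered scaling, background correction, the deposited table, filters, probe choice, variance model, replicate block, thresholds and each array left out.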

Additional observations from a re-analysis of the deposited data

How the results depend on the processing

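The 6 members called higher and well above background on all 4 arrays kept a difference above 0 under each alternative. EPHA4 did so where it had a fold change, but it passed the filter only through its knockdown arrays. It had no fold change where detection on all 4 arrays was required. The limma adjusted p of EFNB2 reached 0.449, under normexp correction, and that of EFNB1, EPHB3, EPHB2, EPHB4 and EPHA1 0.651. That of EPHA4 reached 0.762, with limma's trend added to normexp. Without scaling, EPHA2 was at 0.43 and EFNA1 at 0.45, and other family genes called were 5 higher and 0 lower, Eph partners 39 and 1, other kinases 22 and 2, and semaphorin genes 22 and 1. With normexp correction (offset 50), KPNA4 differed by -1.96 (limma adjusted p = 0.651), EPHA2 was at 0.14, and 0 genes were called in any list. At an unadjusted p under 0.05 it gave 3 members higher, 1 other family gene, 3 partners higher and 2 lower, 2 other kinases and 4 semaphorin genes. With limma's trend added, chosen after seeing the data, 2 members were called (EFNB2 and EFNB1), and EPHA2 was at 0.14. Other family genes were 0 and 0, partners 3 higher and 4 lower, other kinases 2 and 1, and semaphorin genes 4 and 0. Of all 19550 genes, 506 were called higher and 1072 lower in that setting. The cause was not tested.

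Without a filter on dim probes, 0 other family genes fell, partners were 8 higher and 9 lower, and 1 semaphorin gene fell. With the mean over probes, 2 other family genes and 5 semaphorin genes fell. At an adjusted p under 0.01, 5 members were higher, 0 other family genes lower, partners 6 and 5, other kinases 6 and 2, and 1 semaphorin gene lower. At that threshold 2130 of all genes were higher and 2339 lower. By a 2-fold difference without a test, 3 members were higher and other family genes were 1 and 0. Partners were 4 and 1, other kinases 3 and 1, and semaphorin genes 4 and 1. EPHA4, which passed the filter only through its knockdown arrays, is among the 3 by its fitted 1.18. Its bound is at least 1.55-fold. EPHA4 is also counted at the adjusted p under 0.01, with the block and with each array left out. By the same rule 1058 of all genes were higher and 681 lower. With the replicate number as a block, 6 members were higher, EPHB4 had a limma adjusted p of 0.0519, 9 partners were higher and 3262 of all genes rose and 4639 fell, against 3973 and 5766. The replicate differences of both groups did not correlate (r = -0.034 over 19538 genes), which cannot show whether cultures were handled in pairs.

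Leaving out each array in turn gave 5 to 7 members higher, with the lone array of a group assumed to vary like the others. EPHA2 ranged from -0.17 to 0.034 (0.034 without control replicate 2, 0.0066 without knockdown replicate 1) and EFNA1 from -0.12 to 0.026 (without knockdown replicate 1). Other family genes called were 2 to 3 higher and 0 to 1 lower, partners 6 to 11 higher and 5 to 15 lower, other kinases 6 to 9 and 1 to 6, and semaphorin genes 10 to 13 and 1 to 2. Signal near background limits EPHA4 and EPHB6.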
